A study of Caenorhabditis elegans with 20 samples.

Results

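A set of 10 genes of the endoplasmic reticulum stress response of Caenorhabditis elegans were followed across 20 total RNA libraries of whole day 1 adults. They are the sensors and transducers ire-1, xbp-1, pek-1 and atf-6, and the folding factors hsp-3, hsp-4, crt-1, enpl-1, pdi-2 and dnj-27, which is 10 of the 46778 genes in the deposited files. Each was found by its symbol, the rule uses no measured value, and all 10 passed the filter on low values that kept 15737 genes. There were 5 strains with 4 libraries each. AWK33 carries granulin 1(+), AWK43 granulin 2(+) and AWK107 granulin 3(+), all 3 in a pgrn-1(-) background. CF3050 carries pgrn-1(-) alone and is called the null below, and N2 is the wild type. Progranulin is a secreted protein that is cut into granulins, and the comparisons ask what each granulin does to day 1 adults that lack the full-length protein. The sources used here name neither the promoters of the granulin transgenes nor the pgrn-1 allele nor the number of animals per library. Each granulin is carried by 1 strain, so its effect and that of anything else that sets the strain apart cannot be told apart. No label states whether replicate libraries were grown separately, and p-values therefore cover the spread among these libraries alone, which may be technical.

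Proteins that enter the secretory pathway fold in the endoplasmic reticulum, and cells answer an excess of unfolded protein there through membrane-bound sensors. IRE-1 is a kinase and ribonuclease that removes an intron from the xbp-1 mRNA, after which the XBP-1 transcription factor raises chaperone genes. PEK-1, the worm PERK, is a kinase that slows translation by phosphorylating an initiation factor. ATF-6 is a transcription factor held in the membrane until it is cut free. HSP-3 and HSP-4 are the BiP chaperones of the worm, and hsp-4 is widely used as a reporter of the response. CRT-1 is calreticulin, a calcium-binding chaperone of glycoproteins, and ENPL-1 is the worm endoplasmin, also called GRP94. PDI-2 is a protein disulfide isomerase that also serves as a subunit of the collagen prolyl 4-hydroxylase, and DNJ-27 is a DnaJ and thioredoxin domain protein related to mammalian ERdj5. Gene totals such as these count spliced and unspliced xbp-1 together and hold nothing on protein activity.

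Levels are CPM (reads of a gene scaled to the reads of its library) after scaling between libraries by trimmed means of M values, recomputed from whole reads recovered from the deposited log2 values. Totals were 48279370 to 128776517 reads per library, and ribosomal RNA took 0.450% to 52.7% of them. The sparsest value of any member was 181 reads, for atf-6, so counting error is small beside the spread between libraries. A set of 7 libraries, found in every strain, stood apart by these markers: granulin 1 replicate 3, granulin 2 replicates 2 and 3, granulin 3 replicates 2 and 3, null replicate 1 and wild type replicate 4. They were picked out with the strain comparisons already run. The markers are 15 oocyte and eggshell genes, whose mean level was 5.47 to 8.42 log2 CPM in these and 9.64 to 10.23 in the other 13. A limit of 9, set after the data were seen, separates them. The mean of 11 germline genes was also lower in them, at 5.27 to 7.24 log2 CPM against 7.80 to 8.43. None of the oocyte or germline genes was at 0 in any library. In whole animals, fewer cells of a type and less RNA per cell cannot be told apart.

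The plot of levels by strain shows how the 10 genes are spread. Per kilobase of exon, crt-1 was the highest in every strain, at 485 ± 149 CPM per kb in granulin 1, 354 ± 206 in granulin 2, 459 ± 279 in granulin 3, 566 ± 145 in the null and 539 ± 52.9 in wild type (SD, n = 4 each). The 4 other abundant chaperone genes, hsp-3, hsp-4, enpl-1 and pdi-2, held ranks 2 to 5 in every strain, in varying order. Their strain means ran from 149 to 287 CPM per kb, and with SDs of 51.0 to 151 CPM per kb neighbours among them did not differ beyond their spread. The splicing target xbp-1 held rank 6 in each strain, with means of 89.2 to 118.9 CPM per kb, and ire-1 held rank 7 with 37.2 to 50.6. The other sensors were scarcer: pek-1 had means of 10.3 to 17.9 CPM per kb and atf-6 of 4.72 to 7.19. The sparse chaperone dnj-27, at 5.55 to 7.52 CPM per kb, lay beside atf-6, and these exchanged the last 2 places between strains.

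**Figure D1:**
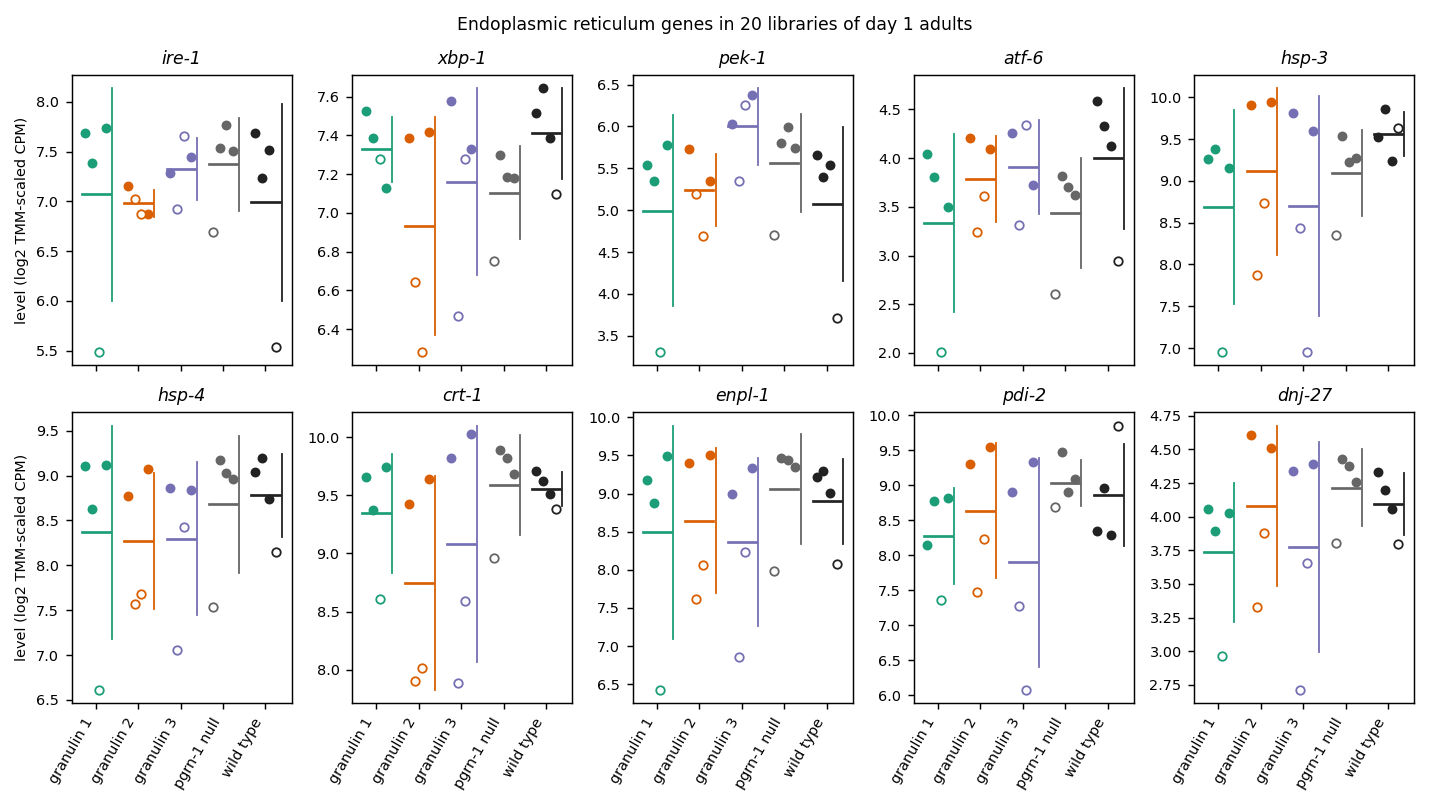
Level of each gene in log2 CPM after scaling between libraries (vertical axis), for the 4 libraries of each strain, with granulin strains left of the pgrn-1 null and wild type. Points are libraries, open points are the 7 libraries low in oocyte markers, horizontal lines are means and vertical lines are ± 1 SD. The open points lie below the filled ones of their strain for most genes, and the strains overlap for every gene.

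The BiP genes differed more within strains than between them. hsp-4 had 553, 396, 97.8 and 554 CPM in granulin 1, 437, 190.03, 205 and 537 in granulin 2, 467, 133, 345 and 457 in granulin 3, 186, 578, 523 and 501 in the null, and 525, 589, 426 and 284 in wild type (replicates 1 to 4). 1 or 2 libraries per strain were low, and these are the libraries low in oocyte markers. The log2 fold change of hsp-4 was -0.31 ± 0.58 in granulin 1, -0.41 ± 0.58 in granulin 2 and -0.38 ± 0.58 in granulin 3 against the null (± SE, n = 4 libraries per strain), and -0.10 ± 0.58 in the null against wild type. hsp-3 had 614, 669.6, 124 and 569 CPM in granulin 1, 961, 235.4, 425 and 988 in granulin 2, 903, 345, 124 and 776 in granulin 3, 328, 743, 597 and 619.9 in the null, and 737, 930.3, 602 and 796 in wild type. The same libraries were low, except that wild type replicate 4 was within the range of the other wild-type libraries. Its fold changes against the null were -0.41 ± 0.64 in granulin 1, 0.02 ± 0.64 in granulin 2 and -0.40 ± 0.64 in granulin 3, and the null against wild type gave -0.47 ± 0.64, all on the log2 scale. hsp-3 and hsp-4 are close paralogs, and no source used here says how the counting treated reads that match both.

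The balance of the paralogs was read within each library, where no scaling between libraries enters. The log2 ratio of hsp-4 to hsp-3, taken on CPM and so without regard to gene length, was -0.32 ± 0.32 in granulin 1, -0.84 ± 0.37 in granulin 2, -0.40 ± 1.28 in granulin 3, -0.42 ± 0.28 in the null and -0.78 ± 0.47 in wild type (SD, n = 4 each). Per kilobase of exon, hsp-3 was the higher in 16 of 20 libraries and hsp-4 in 4 (granulin 1 replicates 1 and 4, granulin 3 replicate 3 and null replicate 3). Granulin 3 replicate 3 stood apart, with a ratio of 1.48, beside ratios of -0.95, -1.38 and -0.76 in the other granulin 3 libraries. Over 10 comparisons the smallest two-sided p of the exact permutation test was 0.0857, for granulin 2 against the null (-0.42) and against granulin 1 (-0.52), and its Benjamini-Hochberg adjusted value was 0.429. With 4 libraries a strain the test can reach 0.0286 at the lowest.

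Calreticulin and endoplasmin followed hsp-4. crt-1 had 806, 663, 391 and 855 CPM in granulin 1, 688.5, 239, 258 and 798 in granulin 2, 903, 236, 387 and 1043 in granulin 3, 499, 948, 904 and 824 in the null, and 837, 788, 728 and 666 in wild type. The libraries of granulin 2 and granulin 3 that were low in oocyte markers were below every null and wild-type library. crt-1 in granulin 2 against the null gave -0.84 ± 0.51 on the log2 scale, limma adjusted p = 0.283 after Benjamini-Hochberg adjustment over all genes, which did not pass 0.05. enpl-1 had 577, 468, 86.0 and 723 CPM in granulin 1, 673, 196, 267 and 725 in granulin 2, 512, 116, 301.5 and 649 in granulin 3, 253, 707, 697 and 650 in the null, and 593, 627, 513.5 and 269.98 in wild type. Over all 20 libraries it was the member with the widest spread within strains, a pooled SD of 0.99 log2 units. Its fold changes against the null ran from -0.70 ± 0.67 in granulin 3 to -0.42 ± 0.67 in granulin 2. crt-1 shares its stretch of chromosome V with an antisense gene, smut-1, and enpl-1 overlaps spo-11. The library kit keeps strand, but no source used here gives the strand setting of the counting, so reads of such neighbours may be included.

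The isomerase gene pdi-2 had 282, 440, 165 and 450 CPM in granulin 1, 630, 177, 299.8 and 752 in granulin 2, 479, 155, 67.5 and 642 in granulin 3, 412, 709, 479 and 543 in the null, and 327, 500, 312 and 926 in wild type. It was the one chaperone gene that was high in wild type replicate 4, by 1.32 log2 units over the mean of the other wild-type libraries. That library also had the highest mean levels of muscle genes (10.10 log2 CPM) and of intestinal genes (11.15) of all 20, and their part in the value was not tested. Granulin 3 replicate 3 held the lowest pdi-2 value, 3.04 log2 units under the other granulin 3 libraries that were not low in oocyte markers, and hsp-3 was 2.75 lower there while atf-6 was 0.35 higher. That library had the lowest mean of muscle genes, 6.07 log2 CPM, whose part was not tested either. Against the null, pdi-2 gave -0.76 ± 0.63 in granulin 1, -0.40 ± 0.63 in granulin 2 and -1.14 ± 0.63 in granulin 3 (limma adjusted p = 0.283 for the last). dnj-27 was sparse, with 7.80 to 16.6 CPM in granulin 1, 10.04 to 24.4 in granulin 2, 6.53 to 20.995 in granulin 3, 13.9 to 21.5 in the null and 13.8 to 20.1 in wild type, and its strains overlapped throughout.

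Among the sensors, pek-1 stood out by level in granulin 3. It had 46.4, 40.8, 9.86 and 55.1 CPM in granulin 1, 53.1, 36.6, 25.8 and 40.7 in granulin 2, 65.5, 40.7, 76.7 and 82.7 in granulin 3, 25.9, 55.6, 63.9 and 53.7 in the null, and 50.6, 41.9, 46.6 and 13.04 in wild type. In granulin 3, 3 libraries were above every library of the other strains, and the fourth, replicate 2, lay among them. The log2 fold change was 0.93 ± 0.50 against wild type, limma adjusted p = 0.330 after Benjamini-Hochberg adjustment, and 1.01 ± 0.50 against granulin 1, adjusted p = 0.366, and neither passed 0.05. Both comparisons are between strains with the same letters in their sample names. Sample names of granulin 1, granulin 3 and wild type begin with A to D, those of granulin 2 and the null with E to H, and no meaning is stated. Where letters differ, as in the null against wild type, the strains cannot be told apart from any batch they mark.

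ire-1 had 206, 167, 44.8 and 213 CPM in granulin 1, 142, 129.8, 117 and 117 in granulin 2, 156, 121, 202 and 174 in granulin 3, 103.6, 185, 217 and 182 in the null, and 206, 150.4, 182 and 46.4 in wild type. Granulin 2 was the narrowest strain, and granulin 1, the null and wild type held 1 low library each. Its fold changes against the null were -0.30 ± 0.49, -0.39 ± 0.49 and -0.05 ± 0.49 in granulin 1, 2 and 3. xbp-1, which carries the spliced intron, was the steadiest member over all 20 libraries, with a pooled SD of 0.37 log2 units. In the 13 libraries not low in oocyte markers its pooled SD was 0.19, and dnj-27 was the steadiest at 0.09. xbp-1 had 184, 167, 155 and 139.8 CPM in granulin 1, 167, 100.02, 77.8 and 171 in granulin 2, 191, 88.5, 155 and 161 in granulin 3, 108, 157, 146 and 145 in the null, and 183, 200.3, 168 and 137 in wild type. Unlike the other members it was not low in granulin 1 replicate 3, at 155 CPM. atf-6 had 16.4, 13.97, 3.997 and 11.3 CPM in granulin 1, 18.4, 9.45, 12.2 and 17.0 in granulin 2, 19.1, 9.92, 20.2 and 13.1 in granulin 3, 6.04, 14.04, 13.02 and 12.3 in the null, and 23.98, 20.02, 17.5 and 7.66 in wild type. All 4 null libraries were below 3 of the 4 wild-type ones, and the log2 fold change in the null against wild type was -0.56 ± 0.44, limma adjusted p = 0.7503.

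Over all 10 comparisons of the 5 strains, 0 of 10 members passed limma with Benjamini-Hochberg adjustment over the 15737 genes in any comparison. Likewise 0 had an unadjusted p under 0.05, and 0 had strains whose libraries did not overlap. The share of all genes with an unadjusted p under 0.05 was not counted. In the background, 0.47% of genes passed in granulin 1 against the null, 21.6% in granulin 2 against the null, 12.7% in granulin 3 against the null and 0.197% in the null against wild type. Against wild type it was 0.324% in granulin 1, 18.3% in granulin 2 and 11.2% in granulin 3, and between granulin strains 18.9% in granulin 2 against 1, 5.58% in granulin 3 against 1 and 5.39% in granulin 3 against 2. Libraries did not overlap for 4.55%, 30.3% and 22.2% of genes in granulin 1, 2 and 3 against the null and for 10.4% in the null against wild type. Against wild type the share was 4.15%, 21.6% and 15.1% in granulin 1, 2 and 3, and it was 19.6% in granulin 2 against 1, 8.04% in granulin 3 against 1 and 13.3% in granulin 3 against 2. An F test over the 5 strains passed 21.5% of genes and 0 members, with pek-1 the nearest at an adjusted p of 0.504. The median member had a log2 fold change of -0.36, -0.36 and -0.39 in granulin 1, 2 and 3 against the null, beside medians over all genes of 0.04, 0.04 and 0.07, and these comparisons share the null libraries. Scaling by depth alone moved the medians over all genes to 0.08, -0.18 and 0.43 there, with members' medians of -0.31, -0.59 and -0.02, so with all 20 libraries the members lay below the median of all genes under both scalings. The 13 libraries that were not low in oocyte markers gave a mixed picture. There the members' medians were -0.09, 0.28 and 0.13 in granulin 1, 2 and 3 against the null, beside 0.09, 0.20 and 0.14 over all genes. The members' median was thus still below that of all genes in granulin 1, about level with it in granulin 3 and above it in granulin 2. In the null against wild type the members' median was 0.08 and that of all genes was near 0. SEs of the members were 0.32 for xbp-1 to 0.67 for enpl-1, beside a median SE of 0.46 over all genes. A p that misses the threshold does not show that a gene was alike in the strains: for hsp-4 in granulin 2 against the null the 95% interval ran from -1.61 to 0.80, which is wide enough for a change of more than 1 log2 unit.

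**Figure D2:**
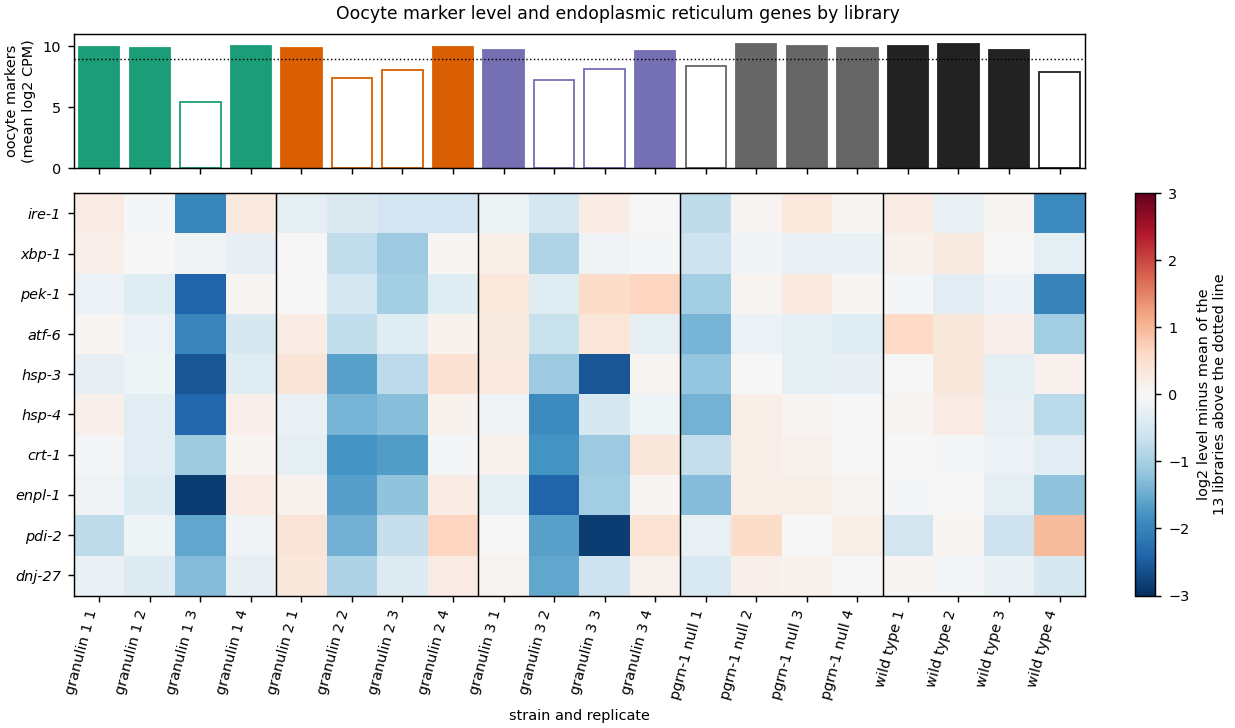
Top: mean level of oocyte and eggshell genes in each library (log2 CPM, bars from 0; the dotted line is at 9, and open bars are below it). Bottom: log2 level of each gene (rows) in each library (columns) minus its mean over the 13 libraries above the line, blue where lower and red where higher. The columns under open bars are blue for most genes, with pdi-2 in wild type replicate 4 as the strongest exception.

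The libraries low in oocyte markers carried most of the spread. Set against the libraries of the same strain among the 13, 9 of 10 members were below all of them in granulin 1 replicate 3 (median difference -1.94 log2 units), 9 in granulin 2 replicate 2 (-1.29), 10 in granulin 2 replicate 3 (-1.16), 10 in granulin 3 replicate 2 (-1.47), 7 in granulin 3 replicate 3 (-0.57), 10 in null replicate 1 (-0.95) and 8 in wild type replicate 4 (-0.63). Every strain had at least 1 such library and granulin 2 and 3 had 2 each, which leaves 2 libraries there to lie below. The share of all genes below them was not counted. The counts also depend on the scaling. By depth alone xbp-1 had 168 CPM in granulin 2 replicate 2, beside 148 and 107 in replicates 1 and 4, while hsp-3 had 396, beside 849 and 618. The lowest member of each library was enpl-1 in granulin 1 replicate 3 (-2.75) and granulin 3 replicate 2 (-2.31), hsp-3 in granulin 2 replicate 2 (-2.05), crt-1 in granulin 2 replicate 3 (-1.52), pdi-2 in granulin 3 replicate 3 (-3.04), hsp-4 in null replicate 1 (-1.52) and the sensor ire-1 in wild type replicate 4 (-1.94). Without the 7, the pooled SD within strains shrank by 1.98-fold for xbp-1 to 6.32-fold for enpl-1, and lay between 0.09 and 0.32 log2 units. Other markers moved in these libraries as well: intestinal genes spanned 7.42 to 11.15 log2 CPM in the 7 and 8.99 to 10.11 in the 13, and muscle genes 6.07 to 10.10 and 6.78 to 8.69. The slope of level on transcript length was lowest, at -0.82, in granulin 1 replicate 3. What part cell make-up or RNA quality had in these values was not tested.

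**Figure D3:**
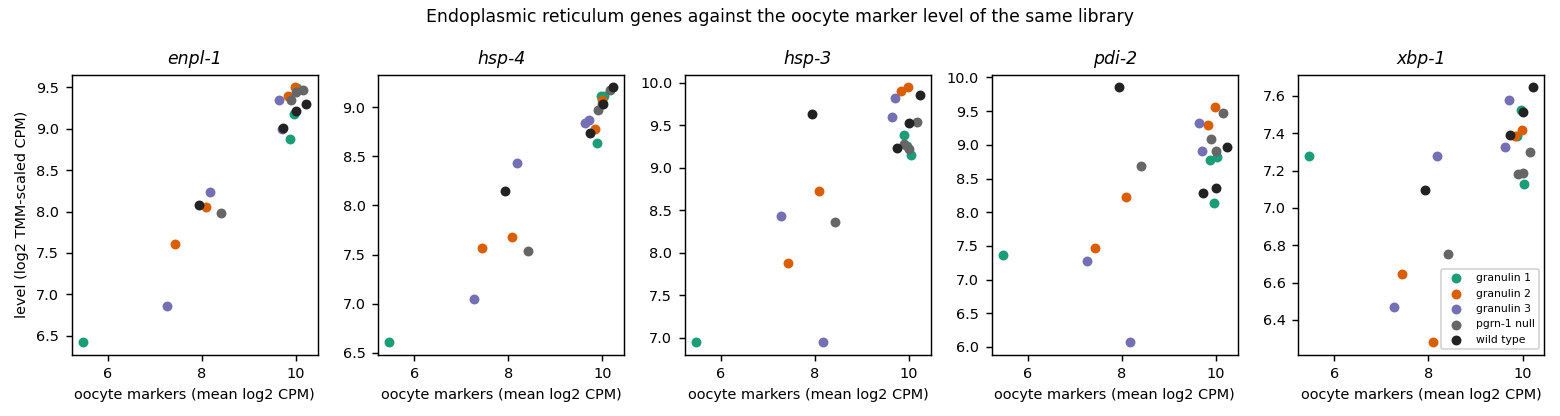
Level of 5 of the genes (log2 CPM, vertical axes) against the mean oocyte and eggshell marker level of the same library (log2 CPM, horizontal axes), 1 point per library coloured by strain. enpl-1 and hsp-4 are low in every library whose markers are below 9, hsp-3 and pdi-2 have a wild-type point that is not, and xbp-1 spans the narrowest range. For pdi-2, null replicate 1 and granulin 2 replicate 3 also lie within the range of the libraries above 9.

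Fitted on the other 13 libraries (3 each of granulin 1, the null and wild type, 2 each of granulin 2 and granulin 3), several members passed, in a fit chosen after the data were seen and with 14638 genes tested. hsp-3 rose in granulin 2, with 958 and 1018 CPM, against 660.3, 533 and 567 CPM in the null, a log2 fold change of 0.76 ± 0.20 (limma adjusted p = 0.00682), where all 20 libraries gave 0.02 ± 0.64, and -0.21 with depth scaling alone. It also rose in granulin 2 against granulin 1, by 0.76 ± 0.20 (adjusted p = 0.00744), where granulin 1 had 595, 662 and 502 CPM. Against wild type it was 0.49 ± 0.20 and did not pass (limma adjusted p = 0.0626). pdi-2 rose in granulin 2, with 629 and 775 CPM, against 308, 477 and 292 CPM in wild type, a log2 fold change of 1.00 ± 0.25 (adjusted p = 0.00529). With all 20 libraries that value was -0.23 ± 0.63, so the 7 libraries turn its sign. Against granulin 1, with 273, 435 and 397 CPM, pdi-2 rose by 0.95 ± 0.25 (adjusted p = 0.00732). Against the null, with 630, 428 and 497 CPM, pdi-2 did not pass, at 0.45 ± 0.25 (limma adjusted p = 0.156). The null against wild type gave 0.55 ± 0.22 for pdi-2 (limma adjusted p = 0.121). dnj-27 rose in granulin 2 as well, with 24.3 and 23.4 CPM, against 16.1, 14.6 and 14.3 CPM in granulin 1, 19.1, 18.6 and 17.5 in the null and 18.9, 17.5 and 15.6 in wild type. Its fold changes were 0.67 ± 0.15 against granulin 1 (adjusted p = 0.00253), 0.38 ± 0.15 against the null (adjusted p = 0.0478) and 0.47 ± 0.15 against wild type (adjusted p = 0.0200), and the last 2 were -0.13 and -0.01 with all 20 libraries. In these 13 libraries 45.8% of all genes passed in granulin 2 against the null, 41.3% in granulin 2 against wild type and 41.8% in granulin 2 against granulin 1, so passing there was common. The medians over all genes were 0.20, 0.11 and 0.13, and relative to them hsp-3 stood at 0.56 against the null and dnj-27 at 0.18.

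ire-1 went the other way in granulin 2 in the 13 libraries. It had 142 and 121 CPM in granulin 2, against 199, 165 and 188 CPM in granulin 1 and 165, 194 and 167 in the null. Its log2 fold change was -0.49 ± 0.16 against granulin 1 (limma adjusted p = 0.0241) and -0.41 ± 0.16 against the null (adjusted p = 0.0456). Against wild type it was -0.36 ± 0.16 and did not pass (limma adjusted p = 0.0844). atf-6 rose by 0.61 ± 0.23 in granulin 2 against the null (adjusted p = 0.0433), with 18.3 and 17.5 CPM, against 12.5, 11.6 and 11.2 CPM in the null. In the null against wild type, where 7.99% of genes passed, atf-6 fell by 0.70 ± 0.21, at an adjusted p of 0.0499972 that is just inside the threshold. Granulin 2 and the null have the same letters, the null and wild type do not. Sperm genes were high in the same granulin 2 libraries: the 21 listed summed to 160.4 to 344 CPM in granulin 2, 7.53 to 27.4 in the null and 3.66 to 12.9 in wild type over the 20 libraries, and 20 of 20 tested passed as higher in granulin 2 against the null. Their part in the members' values was not tested.

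pek-1 rose in granulin 3 in the 13 libraries, with 64.6 and 74.1 CPM, against 44.98, 40.3 and 48.6 CPM in granulin 1, 53.0 and 41.9 in granulin 2 and 47.6, 39.99 and 43.7 in wild type. The log2 fold changes were 0.66 ± 0.16 against wild type (limma adjusted p = 0.00652, 23.8% of genes passing), 0.64 ± 0.16 against granulin 1 (adjusted p = 0.0109, 21.3% passing) and 0.55 ± 0.17 against granulin 2 (adjusted p = 0.0452, 13.2% passing). Against the null, with 49.4, 57.1 and 49.2 CPM, it was 0.42 ± 0.16 with an adjusted p of 0.0523, and 32.8% of genes passed. Of all members, pek-1 was the one whose direction in granulin 3 against wild type was the same in each of the 33 alternative settings, between 0.47 and 1.73. Against the other strains it was likewise positive in all settings run, but other members also kept their sign there. Against the null these were atf-6 (0.19 to 0.84) and enpl-1 (-1.06 to -0.18). Against granulin 1 this was atf-6 (0.13 to 0.89), and against granulin 2 ire-1 and crt-1. The settings refit the same libraries, so a steady sign is not independent evidence. Sperm genes were raised in granulin 3 as well, at 26.3 to 267 CPM summed, and 17 of 20 tested passed against wild type over the 20 libraries. pek-1 did not pass with all 20 libraries in the fit described first.

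With all 20 libraries, calls of members came from 2 other ways of fitting. With the slope of level on transcript length in each library as a covariate, pek-1 rose by 1.44 ± 0.32 in granulin 3 against wild type (limma adjusted p = 0.00273, 16.5% of genes passing) and by 0.95 ± 0.31 against granulin 1 (adjusted p = 0.0463, 12.8% passing). In the same fit crt-1 had a log2 fold change of -0.73 ± 0.27 in granulin 2 against the null (adjusted p = 0.0439, 34.1% passing) and -0.81 ± 0.27 against granulin 1 (adjusted p = 0.0298, 30.5% passing). Without the 7 libraries low in oocyte markers, and without the covariate, crt-1 gave -0.09 ± 0.15 and 0.05 ± 0.15 there (limma adjusted p = 0.649 and 0.831). With scaling by depth alone pek-1 passed in granulin 3 against wild type (1.73 ± 0.60, adjusted p = 0.0443, 17.6% passing), where the median of all genes lay at 0.81.

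**Figure D4:**
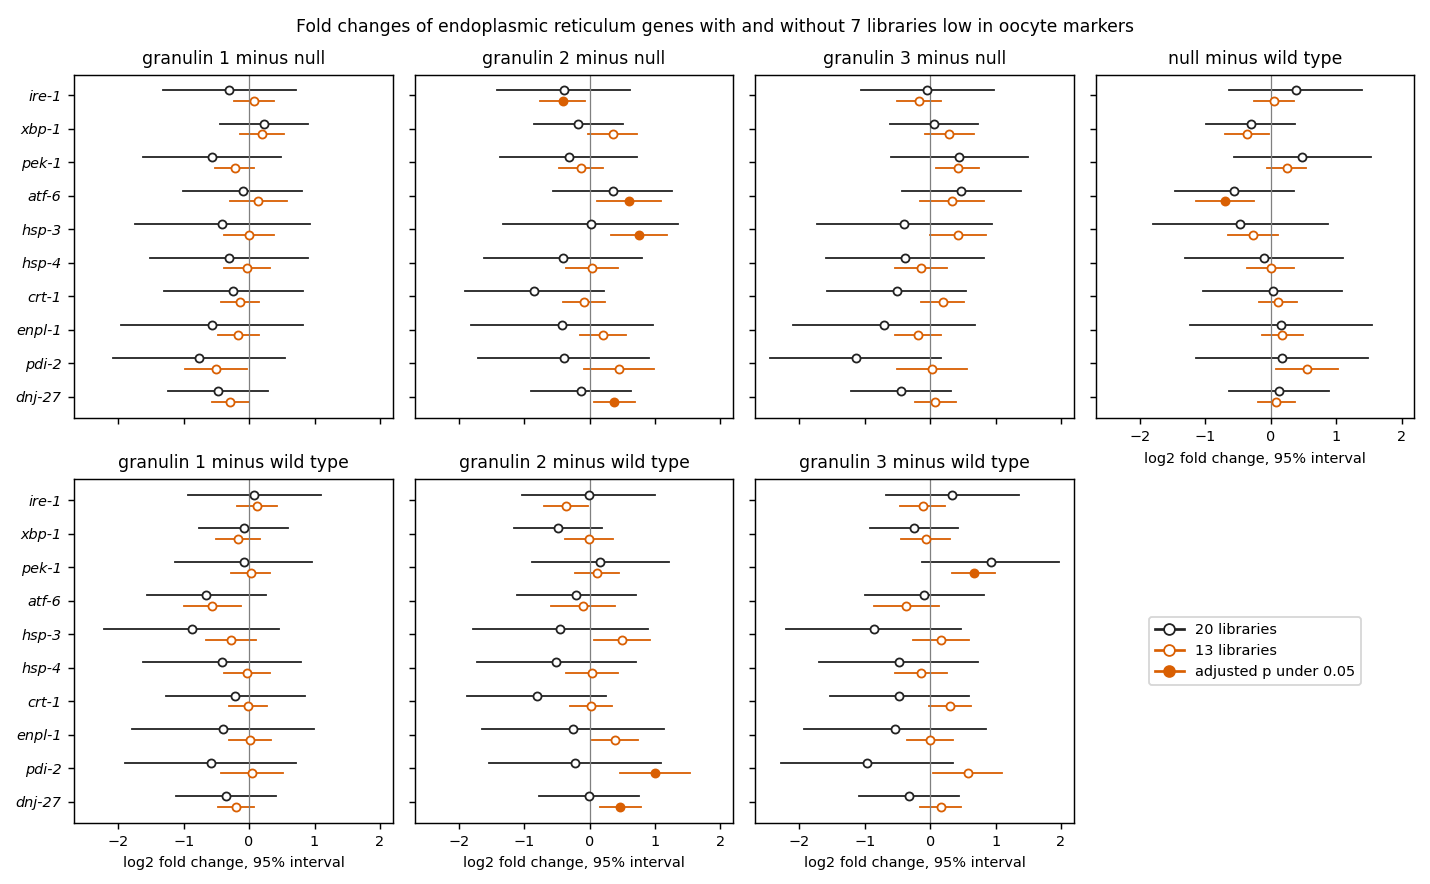
Log2 fold change of each gene in 7 comparisons, with 95% intervals from limma. Black, all 20 libraries; orange, the 13 libraries not low in oocyte markers; filled points passed an adjusted p of 0.05. All intervals from 20 libraries cross 0, and the filled points are in granulin 2 against the null and wild type, granulin 3 against wild type (pek-1) and the null against wild type (atf-6).

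hsp-4, the usual reporter, passed in none of the 10 comparisons of the 13 libraries. It had 536, 391 and 489 CPM in granulin 1, 436 and 554 in granulin 2, 460.3 and 409.8 in granulin 3, 514, 467 and 458 in the null and 494, 561 and 399 in wild type. The strains overlapped throughout, and the largest difference was -0.18 ± 0.20 log2 units, in granulin 3 against granulin 2. Its 95% intervals over the 10 comparisons lay between -0.61 and 0.46, so a change of 1 log2 unit or more was outside all of them in these libraries. xbp-1, crt-1 and enpl-1 passed in none either, with smallest adjusted p-values of 0.113, 0.145 and 0.0781 by limma. The F test over the 5 strains passed 5 of 10 members in the 13 libraries (pek-1, atf-6, hsp-3, pdi-2 and dnj-27), where it passed 54% of all genes. In granulin 1 against the null and against wild type 0 members passed, with 0.717% and 0.594% of genes passing, and 2 and 1 members had an unadjusted p under 0.05. Granulin 3 against the null had 0 as well, with 2 members at an unadjusted p under 0.05. The share of all genes at that unadjusted limit was not counted, so these counts cannot be set against a background.

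Other genes of the pathway were taken from 8 lists with 79 symbols, of which 73 matched the annotation and 63 were tested. They covered further sensors and transducers, BiP co-chaperones, disulfide and prolyl isomerases, collagen prolyl and lysyl hydroxylases, degradation, translocon, oligosaccharyltransferase and the abu genes (named for being activated when the response is blocked). In granulin 2 against the null 3 of 63 rose and 0 fell with all 20 libraries, in granulin 3 against the null 2 rose and 0 fell, and in granulin 1 against the null and the null against wild type 0 moved. Against wild type, 1 rose and 1 fell in granulin 2, 2 rose in granulin 3 and 0 moved in granulin 1. Between granulin strains 2 rose and 1 fell in granulin 2 against granulin 1, and 0 moved in the other comparisons. These shares are below those of all genes given above. The median of the 63 was -0.28 in granulin 2 against the null, beside 0.04 over all genes, and -0.13 in granulin 3 against the null, beside 0.07. Sensors and transducers, BiP co-chaperones, degradation and oligosaccharyltransferase genes had 0 calls in any of the 10 comparisons.

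The calls were in isomerase, hydroxylase, translocon and abu genes. abu-12 averaged 0.58 log2 CPM in granulin 2 and -2.60 in the null, a log2 fold change of 3.18 ± 0.56 (limma adjusted p = 0.000227), and abu-13 averaged 1.48 in granulin 2 and -0.94 in the null, a change of 2.42 ± 0.50 (adjusted p = 0.00107). Both passed in each of the 33 alternative settings. The abu genes were low in the null itself, with a median of -1.69 over the 5 tested in the null against wild type. In granulin 2 against wild type that median was 0.23, and 0 passed in either comparison. abu-12 in the null lay near the filter limit of 0.177 CPM, and 5 of 14 matched abu genes were tested. Proteins of the abu family have also been described as parts of the pharyngeal cuticle. In granulin 2 against the null 7 of 15 hypodermis and cuticle markers rose, whose part was not tested. fkb-4, a prolyl isomerase gene, rose by 1.38 ± 0.42 there (adjusted p = 0.0216) and did not pass without null replicate 2 or 3 or without granulin 2 replicate 2 or 3, nor with the replicate block (adjusted p = 0.0952) or depth scaling alone (adjusted p = 0.174). let-268, the collagen lysyl hydroxylase, averaged 3.80 log2 CPM in granulin 2 and 2.75 in wild type, a change of 1.05 ± 0.26 (adjusted p = 0.00461) that passed in each of 32 settings. trap-3, a subunit of the translocon-associated complex, averaged 6.64 log2 CPM in granulin 2 and 8.37 in wild type. Its log2 fold change was -1.73 ± 0.47 (limma adjusted p = 0.0112), and it did not pass without granulin 2 replicate 2 (adjusted p = 0.0582).

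abu-12 also rose in granulin 3 against the null, by 1.99 ± 0.56 (limma adjusted p = 0.0229), and in granulin 2 against granulin 1, by 2.28 ± 0.56 (adjusted p = 0.00583, but 0.0646 in the 13 libraries). The first did not pass in 5 of 20 fits that left out 1 library (granulin 3 replicates 1, 2 and 4, null replicates 2 and 3; largest adjusted p 0.134). C14B9.2, a disulfide isomerase gene related to mammalian ERp72, rose by 1.04 ± 0.31 in granulin 3 against the null (adjusted p = 0.0295) and by 0.97 ± 0.31 against wild type (adjusted p = 0.0465), and passed in 12 and 5 of the 20 fits without 1 library. let-268 rose by 0.94 ± 0.26 in granulin 3 against wild type (adjusted p = 0.0167) and did not pass without wild type replicate 2 or 3 or granulin 3 replicate 4, nor when the 2 strains were fitted alone (adjusted p = 0.0647, or 0.0739 with the replicate block). In granulin 2 against granulin 1, abu-13 rose by 1.47 ± 0.50 (adjusted p = 0.0454) and trap-3 fell by 1.37 ± 0.47 (adjusted p = 0.0470), and each passed in 9 of the 20 fits without 1 library. Neither passed in the 13 libraries, where abu-13 gave 1.33 (limma adjusted p = 0.124) and trap-3 gave -0.46 (limma adjusted p = 0.157). In the 13 libraries the counts were larger: 16 of the other pathway genes were higher and 14 lower in granulin 2 against the null, 15 higher and 5 lower in granulin 3 against the null, and 5 higher and 2 lower in the null against wild type. These are 48.4%, 32.3% and 11.3% of the 62 tested there, beside 45.8%, 32.8% and 7.99% of all genes, so the counts were near the background.

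Within the 10 genes, hsp-4 and enpl-1 were the closest pair over the 20 libraries, with a Pearson r of 0.97 in log2 CPM, and ire-1 and pek-1 had 0.92. ire-1 and pdi-2 had -0.03. The libraries share strains, scaling and the 7 low ones, so these are descriptions: over the 13 libraries the same pairs had 0.64, 0.32 and -0.59. Across the other 14860 protein-coding genes tested, 878 had an r over 0.9 with hsp-4 (5.91%) and 1021 with enpl-1 (6.87%) over the 20 libraries, against 2 and 132 over the 13. xbp-1 went the other way, with 7 such genes over the 20 libraries and 26 over the 13. The 3 genes most like each member were chosen by their r over the 20 libraries, so a lower r over the 13, given second, follows in part from the choice. For ire-1 they were ttll-4, a tubulin tyrosine ligase-like gene (0.99 and 0.97), gon-4 (0.99 and 0.97) and D2023.6 (0.99 and 0.92). For enpl-1 they were pmp-3 (0.99 and 0.93), the cullin cul-1 (0.99 and 0.91) and the replication helicase subunit mcm-3 (0.99 and 0.91). For hsp-4 they were grld-1 (0.99 and 0.82), the sorting nexin snx-6 (0.98 and 0.78) and tiar-1 (0.98 and 0.70). For hsp-3 they were gbf-1 (0.98 and 0.86), the exonuclease xrn-1 (0.98 and 0.81) and dnbp-1 (0.98 and 0.86).

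The mitochondrial gene immt-1 was closest to pdi-2 (0.98 and 0.93), before the glutamate dehydrogenase gdh-1 (0.96 and 0.86) and the ribosomal protein gene rpl-4 (0.96 and 0.84). Closest to crt-1 were ogdh-2 (0.97 and 0.62), hpo-13 (0.97 and 0.71) and C18F10.7 (0.97 and 0.64). dnj-27 had cox-15 (0.95 and 0.65), madd-3 (0.95 and 0.82) and the glycyl-tRNA synthetase gars-1 (0.95 and 0.57). Among the sensors, pek-1 had cpd-1 (0.95 and 0.62), F38A1.8 (0.93 and 0.75) and the DNA ligase lig-4 (0.93 and 0.24), and atf-6 had F13B12.6 (0.96 and 0.84), csn-6 of the COP9 signalosome (0.96 and 0.73) and the germline gene fog-1 (0.96 and 0.82). xbp-1 had chat-1 (0.94 and 0.76), arf-6 (0.93 and 0.71) and arf-1 (0.91 and 0.63). ire-1, enpl-1 and pdi-2 had at least 1 of these neighbours over 0.9 in both sets of libraries.

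The genes lie on 6 chromosomes in the genome build ce11. ire-1 is on chromosome II at 8112243 to 8124910 (minus strand) and overlaps unc-105, and hsp-4 is on II at 7350112 to 7352645 (minus). xbp-1 is on III at 4193809 to 4195358 (plus), enpl-1 on IV at 11119298 to 11123155 (plus), crt-1 on V at 6098992 to 6100542 (minus) and dnj-27 on I at 11877803 to 11887278 (plus). The other 4 are X-linked: pek-1 at 11410176 to 11414887 (minus), atf-6 at 12480948 to 12484904 (plus), hsp-3 at 6089028 to 6092124 (minus) and pdi-2 at 4524155 to 4526536 (plus). dnj-27 and pdi-2 also overlap annotated non-coding RNA genes, whose reads cannot be told apart without the strand setting. All values are totals over the exons of a gene.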

How the data were processed

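Whole day 1 adults were sequenced as total RNA, with libraries from an Illumina TruSeq Stranded Total RNA kit per the labels' protocols. The authors deposited 1 table of log2 CPM values per library (on the log2 scale, with a prior count of 2). Per the submitters' processing notes the tools were STAR, HTSeq, edgeR and limma and the build was ce11; no source used here gives versions, annotation, order or strand setting. Because the deposited unit is log2, limma 3.58.1 (R 4.3.3) was used in place of a count test. Whole reads were recovered from the steps of the values: within 0.01 reads, all but 7 values above 0 came out whole. Ensembl release 115 for the same build gave symbols and coordinates for 46603 of 46778 genes. From the reads, log2 CPM with a prior of 2 was recomputed after scaling by trimmed means of M values (trimming 30% of ratios and 5% of levels), for 15737 genes with at least 0.177 CPM in 4 libraries and 15 reads in all. A single fit of the 20 libraries estimated 5 strain means, moderating variances robustly towards a trend on level. Benjamini-Hochberg adjustment ran over the 15737 genes, and 0.05 was the limit for a call. Fold changes are first strain minus second on the log2(CPM + prior) scale, which understates low genes. The fit was tested on simulated data. The smallest chi-square per degree of freedom between replicates was 156, so each library was kept as a sample of its own. All 10 members are named, with the 3 genes of highest Pearson correlation to each and, of the other pathway genes, up to 4 per comparison by smallest p. The members, the 8 pathway lists and the 7 lists of cell type markers were chosen with earlier results of these data known. Alternatives were scaling, protein-coding genes alone, the prior, the filter, the variance model, a length-trend covariate, left-out libraries, single comparisons and a replicate block.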

Additional observations from a re-analysis of the deposited data

Results flagged for a closer look

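In 7 of 50 groups of 4 libraries (10 genes in 5 strains), 1 library lay far from the other 3 by Dixon's test, where chance gives about 1 in 20. The groups are not independent, because the 10 genes were measured in the same libraries. All 7 flagged values are low. They fall in granulin 1 replicate 3, null replicate 1 and wild type replicate 4, which were low in oocyte markers. No cause was tested. In granulin 1 replicate 3, hsp-3 was 6.95 log2 CPM with 9.15 to 9.39 in the others, ire-1 was 5.49 with 7.38 to 7.73, and dnj-27 was 2.97 with 3.89 to 4.06. In null replicate 1, enpl-1 was 7.98 log2 CPM with 9.35 to 9.47 in the others, hsp-4 was 7.54 with 8.97 to 9.17, and atf-6 was 2.60 with 3.62 to 3.81. In wild type replicate 4, pek-1 was 3.71 log2 CPM with 5.39 to 5.66 in the others.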

How the results depend on the processing

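Of 2000 member fold changes from fits that left out 1 library in turn, 0 passed, so the number of members called stayed at 0 to 0 in each comparison and in the F test (smallest adjusted p 0.115 by limma, pdi-2 in granulin 3 against the null without granulin 3 replicate 4). Over the 13 other settings 19 of 1240 passed. Depth scaling alone called 1 member, pek-1 in granulin 3 against wild type (1.73 ± 0.60, limma adjusted p = 0.0443, 17.6% of all genes passing), where it moved the median of all genes to 0.81. The length-trend covariate called 1 member each in granulin 2 against the null (crt-1, -0.73), granulin 3 against wild type (pek-1, 1.44), granulin 2 against granulin 1 (crt-1, -0.81) and granulin 3 against granulin 1 (pek-1, 0.95), and 1 in the F test. The shares of all genes passing in these 4 comparisons were 34.1%, 16.5%, 30.5% and 12.8%, and none was taken for that F test. Leaving out the 7 libraries low in oocyte markers, chosen after seeing the data, called 1 member in the null against wild type, 4 in granulin 2 against the null, 2 in granulin 2 against wild type, 1 in granulin 3 against wild type, 4 in granulin 2 against granulin 1, 1 each in granulin 3 against granulin 1 and against granulin 2, and 5 in the F test. In the same order, the shares of all genes passing were 7.99%, 45.8%, 41.3%, 23.8%, 41.8%, 21.3%, 13.2% and 54%. Leaving out the 7 also reversed dnj-27 in granulin 2 against the null (0.38) and against wild type (0.47), and pdi-2 in granulin 2 against wild type (1.00). Fewer libraries entered, and the cause was not tested. The other settings called 0 members. The replicate block on the letter in sample names called 0 members in each of the 4 comparisons where it could be fitted. Correlations of same-letter deviations ran from -0.59 to 0.58. They include the 7 low libraries, which are not the same replicates in each strain, so they cannot show whether the letters pair the samples. The count of other pathway genes called ran from 2 to 8 in granulin 2 against the null, 0 to 3 in granulin 3 against the null and 0 to 2 in granulin 3 against wild type when 1 library was left out, and reached 30, 20 and 12 without the 7 libraries (48.4%, 32.3% and 19.4% of 62 tested, beside 45.8%, 32.8% and 23.8% of all genes). With the length-trend covariate the first 2 were 13 and 7 (20.6% and 11.1% of 63, beside 34.1% and 23% of all genes). Depth did not limit these genes, each with at least 181 reads in every library; the spread between libraries did.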
